A study of Rattus norvegicus with 6 samples.

Results

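MiR-210-3p is the microRNA (miRNA) most closely tied to low oxygen, and its level is described here in left ventricular myocardium of rats with and without a recent infarct. It is 1 of the 758 miRNAs on the array and was found by its name there, rno-miR-210-3p, among the spots that are not controls. It is read through 2 of the array's 1806 probes. Single-colour Agilent miRNA arrays were run on 6 samples, 1 array each. The 3 MI samples came from male rats of 8 weeks whose left coronary artery was tied and whose hearts were taken at 24 h (MI, myocardial infarction). The 3 control samples came from male rats of the same age that had the same chest operation with no ligation, and their labels carry a time of 0 h, so the effect of ligation and that of the hours after surgery cannot be told apart. No strain, transgene or drug is named in the labels. The labels do not say which animal gave which sample, and the p-values below measure only the spread between these 6 samples. Which part of the ventricle was taken, infarcted or spared, is not given in the labels.

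A miRNA is a short RNA that pairs with messenger RNAs mainly through its seed, bases 2 to 8, and lowers their translation and stability. Under low oxygen the transcription factor HIF (hypoxia-inducible factor) is no longer degraded and raises transcription of the miR-210 gene in many cell types. In cultured cells miR-210-3p then represses, among others, the iron-sulfur cluster scaffold ISCU and with it mitochondrial respiration. It is known as a hypoxia marker in cultured cardiomyocytes and endothelial cells. The other strand of the same hairpin, miR-210-5p, is usually the less stable one.

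The sequences below are shown because the array measures both strands of the hairpin and a miRNA annotated on the opposite DNA strand. They come from RefSeq on build GRCr8, and the array files name the older build rn4. The hairpin lies at chr1:205755923-205756032 on the minus strand, inside LOC102553043, a long noncoding RNA gene. In its 110 bases the mature strands are in capitals, miR-210-5p first. In the mature sequences the capitals mark the seed. MiR-3574 lies at chr1:205755946-205755967 on the plus strand, at the position of miR-210-3p on the minus strand, and all 22 bases of miR-210-3p match its reverse complement. MiR-210-5p lies at chr1:205755984-205756005 on the minus strand. None of the other mature rat miRNAs in the table, which holds 693 names, has the seed of miR-210-3p (0 matches).
Mir210 hairpin: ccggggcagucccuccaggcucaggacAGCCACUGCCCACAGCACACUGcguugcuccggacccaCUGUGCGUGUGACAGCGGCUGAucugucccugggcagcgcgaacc
miR-210-3p: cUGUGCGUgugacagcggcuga
miR-210-5p: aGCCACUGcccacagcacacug
miR-3574: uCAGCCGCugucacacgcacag

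Detection of heart muscle markers was looked at first. All 6 of the listed cardiomyocyte miRNAs, among them the muscle miRNAs miR-1-3p and miR-133a-3p and the myosin-encoded miR-208a-3p and miR-499-5p, were detected on all 6 arrays. So were all members of the other cell type lists given below, so detection alone does not settle the tissue. Each array detected between 446 and 472 miRNAs, and their log2 signals over the 449 tested miRNAs correlated at 0.990 to 0.997 between any pair. A miRNA was taken as detected where over 50% of the unflagged spots of any of its probes were well above background, and it was tested where detected on every array of at least 1 group. Header codes of 2 kinds mark the arrays, code 1 for MI replicate 1 and the controls, code 2 for the remaining MI replicates. Control replicate 3 was scanned apart from the rest.

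MiR-210-3p did not differ between MI and control samples beyond their spread, and its mean was lower, not higher, after MI. Its scaled signal was 452, 524 and 445 in MI replicates 1 to 3, against 493, 570.2 and 568 in control replicates 1 to 3. The mean was 474 ± 43.6 after MI and 544 ± 44.1 in controls (SD, n = 3 each), in arbitrary fluorescence units after scaling of the arrays. MI replicates 1 and 3 stood below every control, but MI replicate 2 stood above control replicate 1, so the groups overlapped.

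On the log2 scale the signal of miR-210-3p was 8.88 ± 0.13 after MI and 9.08 ± 0.12 in controls (SD, n = 3 each). The log2 fold change was -0.20 ± 0.10 (SE), which is 0.870-fold, and limma with Benjamini-Hochberg adjustment over 449 miRNAs gave an adjusted p of 0.460. The unadjusted p in the same limma fit was 0.0882. In a two-sided exact permutation test of the same values p was 0.2, where 0.1 is the smallest p that 3 against 3 samples allow. The 95% interval of the log2 fold change ran from -0.44 to 0.04, or from 0.737-fold to 1.03-fold. A rise above 1.03-fold therefore lay outside the interval, and a fall to 0.737-fold lay at its edge. For comparison with all miRNAs, 11 of 449 (2.45%) passed an adjusted p under 0.05, 61 (13.6%) an unadjusted p under 0.05, and 93 (20.7%) had groups that did not overlap. MiR-210-3p was in none of these sets and ranked 86 of 449 by p.

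In bulk tissue, fewer cells of a type and less of a miRNA per cell cannot be told apart, and this holds for each level given here. The spread of miR-210-3p between replicates, a pooled SD of 0.12 on the log2 scale, was close to the median over all tested miRNAs, 0.13. Its difference stayed below 0 in each of 25 alternative analyses, between -0.29 and -0.16, and passed the adjusted threshold in 0 of them, with limma adjusted p between 0.261 and 0.781. An unadjusted p under 0.05 was reached in 4 of them. Those 4 were the fit without MI replicate 2, with a log2 fold change of -0.28, the fit without control replicate 1, with -0.27, and the scalings to the 75th percentile over all probes, with -0.28, and to the median, with -0.29. Over the alternatives the upper end of the 95% interval reached at most 0.14. Not all 25 are separate checks of the difference. The filters, the higher floor, the eBayes settings and the replicate block left it unchanged. Blocking on the scan gave the same difference as leaving out control replicate 3, and blocking on the array code the same as code 1 alone.

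**Figure D1:**
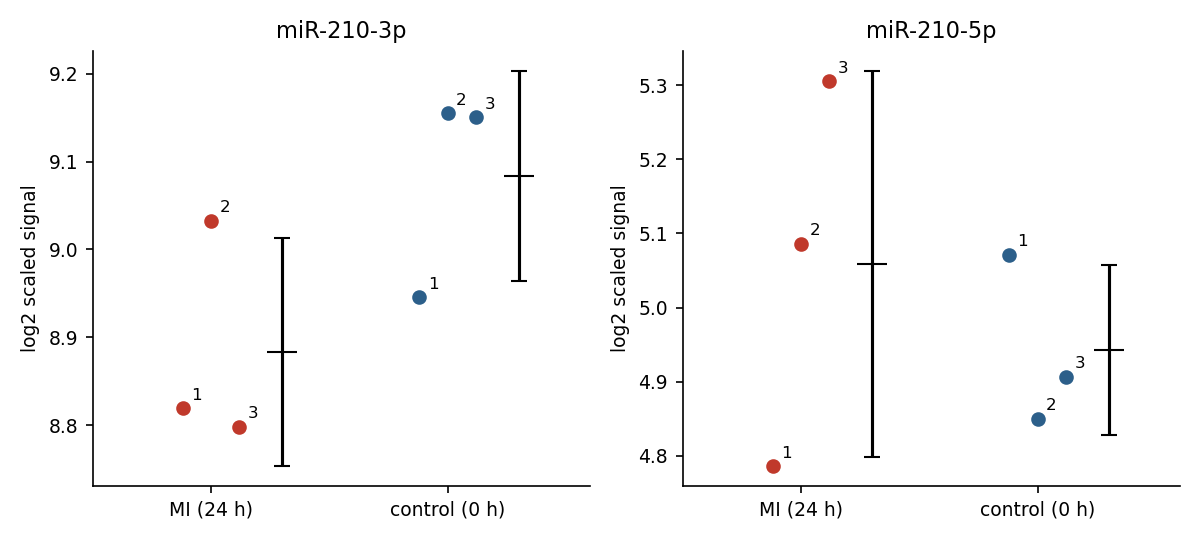
Log2 scaled signal of miR-210-3p (left) and miR-210-5p (right) on each array, MI in red and controls in blue, with the replicate number beside each point and the mean ± SD of each group (n = 3) as black bars. The axes do not start at 0. For miR-210-3p the MI points lie between 8.80 and 9.03 and the control points between 8.95 and 9.16, and for miR-210-5p the MI points lie on both sides of the controls.

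The 2 probes of miR-210-3p gave the same picture. Probe A_26_P00001472 had a scaled signal of 283, 327 and 273 in MI replicates 1 to 3, against 303, 357 and 355 in control replicates 1 to 3. Probe A_26_P00001473 had 169, 197 and 172 in MI replicates, against 190.0, 213 and 213 in controls. With both probes MI replicate 2 was above control replicate 1, and MI replicates 1 and 3 were below all controls.

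The log2 fold change was -0.20 ± 0.11 for A_26_P00001472 and -0.20 ± 0.09 for A_26_P00001473 (SE, n = 3 each), with adjusted p of 0.470 and 0.433 in a limma fit over 926 probes. In that fit 19 probes (2.05%) passed the adjusted threshold and 189 (20.4%) had groups that did not overlap. Across the 6 arrays, which both probes share, their log2 signals correlated at 0.981 (Pearson). Each probe has 8 spots on an array. Of 48 spots over the 6 arrays, 45 were used for A_26_P00001472 and 46 for A_26_P00001473 after outlier flags, and every used spot was well above background. The coefficient of variation between spots on 1 array lay between 1.35% and 3.48% for these probes.

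**Figure D2:**
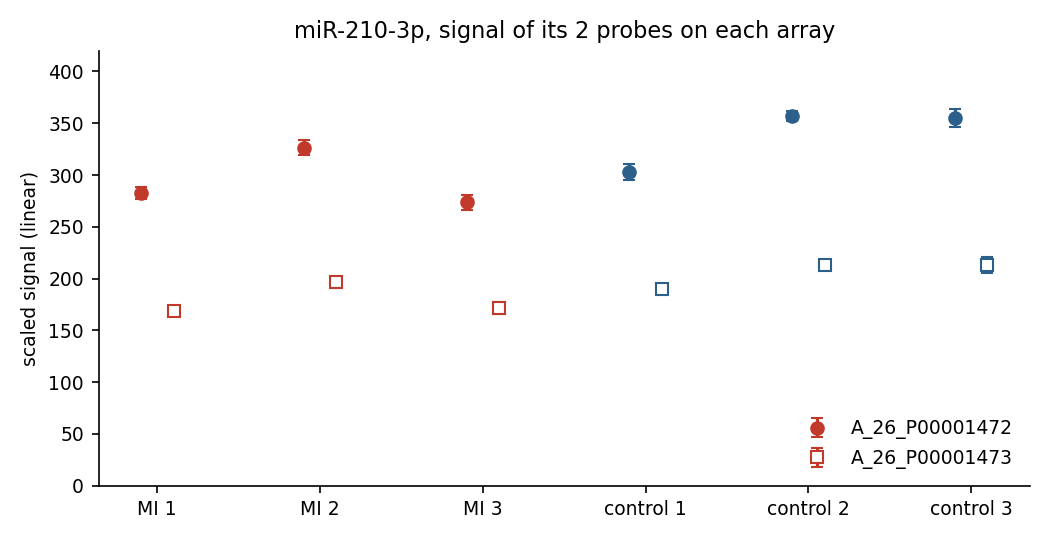
Scaled signal (linear, from 0) of both miR-210-3p probes on each array, filled circles for A_26_P00001472 and open squares for A_26_P00001473, MI in red left of controls in blue. Bars are the SD between spots on 1 array and are mostly hidden by the symbols. Both probes are lowest in MI replicates 1 and 3.

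The authors' processed values gave miR-210-3p the same order. They were 7.80, 7.98 and 7.77 on the log2 scale in MI replicates, against 7.92, 8.14 and 8.11 in controls, a difference of -0.21. Their two-sided exact permutation p was 0.2. Under header code 1 alone, an alternative added after the data had been seen that leaves MI replicate 1 against 3 controls, miR-210-3p differed by -0.26 (limma adjusted p = 0.590), with the lone MI sample taken to vary as the controls do. The code as a block gave -0.26 (limma adjusted p = 0.544). Code 2 holds MI samples only and gives no value of its own. With the scan as a block the value was -0.17 (limma adjusted p = 0.664). Control replicate 3 is the only array of its scan, so this fit is the same as leaving that array out.

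MiR-210-5p, the partner strand, was dim but detected on all 6 arrays. Its log2 signal was 4.79, 5.09 and 5.31 in MI replicates 1 to 3, against 5.07, 4.85 and 4.91 in controls. The controls lay within the range of the MI samples, with MI replicate 1 lowest and MI replicate 3 highest of all 6. The log2 fold change was 0.12 ± 0.14 (SE, n = 3 each; limma adjusted p = 0.755), with a 95% interval from -0.22 to 0.46. Its sign rests on MI replicate 3: without that array the value was -0.0064, and blocking on the array code gave -0.16. The coefficient of variation between its spots was 2.71% to 12.9%.

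The log2 ratio of miR-210-3p to miR-210-5p within an array does not depend on scaling by a single factor per array, as used here. It was 4.03, 3.95 and 3.49 in MI replicates 1 to 3, against 3.87, 4.31 and 4.24 in controls. The ratio differed by -0.32 between the groups, which overlapped (two-sided exact permutation p = 0.3). Over the 6 arrays the log2 signals of both strands correlated at -0.41 (Pearson, as a description).

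MiR-3574, the reverse complement of miR-210-3p, was well above background on 2 of 3 MI arrays and 1 of 3 control arrays, so it entered no fit. Its measured log2 signal was 3.72, 4.01 and 4.36 in MI replicates 1 to 3, against 3.90, 3.30 and 3.65 in controls, where MI replicate 1 and control replicates 2 and 3 were not well above background. The groups overlapped on this scale. In the authors' processed values miR-3574 was 2.51, 2.53 and 3.22 in MI replicates, against 2.48, 2.43 and -0.86 in controls, with no overlap (two-sided exact permutation p = 0.1, the smallest possible), though MI replicate 1 and control replicate 1 lay close together. The scanner software called it detected on all 6 arrays. Of its 2 probes, A_26_P00003073 had 24 of 44 used spots well above background and A_26_P00003074 had 1 of 44.

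The other miRNAs reported to be raised by low oxygen in cultured cells were measured on the same arrays. Of 16 such miRNAs, the strands of miR-210 included, 1 was higher and 0 were lower after MI in limma adjusted over all miRNAs, where 1.78% of all tested miRNAs were higher and 0.668% lower. At an unadjusted p under 0.05 it was 1 higher and 2 lower, against 8.46% and 5.12% of all tested miRNAs. The members' median log2 fold change was -0.06, beside 0.02 over all tested miRNAs. Below 0 lay 12 of 16 members, against 203 of all 449 tested miRNAs. Over all tested miRNAs the adjusted calls were 8 higher and 3 lower, and 5 higher and 5 lower when the 75th percentile was taken over all probes or arrays were scaled to the median.

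The member that rose was miR-21-5p, which is also induced in injured heart. Its log2 signal was 14.74, 14.66 and 14.55 in MI replicates, against 13.66, 13.52 and 13.67 in controls, with every MI sample above every control. The log2 fold change was 1.03 ± 0.08 (SE, n = 3 each; limma adjusted p = 0.00209). The log2 ratio of miR-210-3p to miR-21-5p differed by -1.23 between MI and control arrays with no overlap. Its two-sided exact permutation p was 0.1, the smallest possible, and 0.333 after adjustment over 15 such ratios. Of these 15 ratios of miR-210-3p to another member, 14 were lower after MI on average, and for 3 (miR-21-5p, miR-103-3p and miR-107-3p) the groups did not overlap. These ratios share the values of miR-210-3p. Of all 449 tested miRNAs only 47 (10.5%) had a lower log2 fold change than miR-210-3p, so its ratios to most miRNAs were lower too. Single miRNAs had groups without overlap in 20.7% of the tested set, and that share was not computed for ratios to all miRNAs.

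MiR-181c-5p, which in rat heart cells acts on a mitochondrially encoded subunit of the respiratory chain, had log2 signals of 10.29, 10.39 and 10.28 in MI replicates, against 10.64, 10.58 and 10.64 in controls. All MI samples lay below all controls. MI minus control was -0.30 ± 0.07 on the log2 scale (SE; limma adjusted p = 0.107), and with the 75th percentile over all probes it was -0.38 (limma adjusted p = 0.0492) and with median scaling -0.40 (limma adjusted p = 0.0447). MiR-26a-5p, abundant in heart, stood at -0.18 ± 0.07 on the same scale, close to miR-210-3p, with a limma adjusted p of 0.331. Its relative miR-26b-5p stood at -0.09 ± 0.07 (limma adjusted p = 0.625). The remaining members had log2 fold changes between those of miR-26b-5p and miR-210-5p.

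MiRNAs reported to act on HIF or its regulators form the second list, with 13 of 14 on the array and 11 tested. Of these, 1 was higher and 0 were lower in limma adjusted over all miRNAs, against 1.78% higher and 0.668% lower over all tested miRNAs. At an unadjusted p under 0.05 it was 4 higher and 0 lower, against 8.46% and 5.12% of all tested miRNAs. The median log2 fold change of the list was 0.19, beside 0.02 over all tested miRNAs. The member that rose was miR-18a-5p, made from the miR-17-92 cluster, which in human cells acts on HIF1A, the oxygen-regulated subunit of HIF. Its log2 signal was 7.99, 7.96 and 7.96 in MI replicates, against 7.18, 7.11 and 7.31 in controls, with no overlap. MI samples exceeded controls by 0.77 ± 0.08 on the log2 scale (SE; limma adjusted p = 0.00356). Blocking on the array code gave 0.79 (limma adjusted p = 0.0626), and under code 1 alone the adjusted p was 0.122.

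Further members of this list were higher without passing the adjusted threshold. MiR-17-5p, from the same cluster, stood at 0.36 ± 0.07 (limma adjusted p = 0.0619), miR-20b-5p at 0.28 ± 0.09 (limma adjusted p = 0.235) and miR-20a-5p at 0.27 ± 0.09 (limma adjusted p = 0.239). These are closely similar in sequence, and how far their probes tell them apart was not tested. MiR-155-5p, which activated leukocytes make and which in human cells acts on HIF1A, stood at 0.19 ± 0.10 (limma adjusted p = 0.491). The lists share miR-107-3p and miR-322-5p, at 0.03 ± 0.07 and -0.08 ± 0.09.

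**Figure D3:**
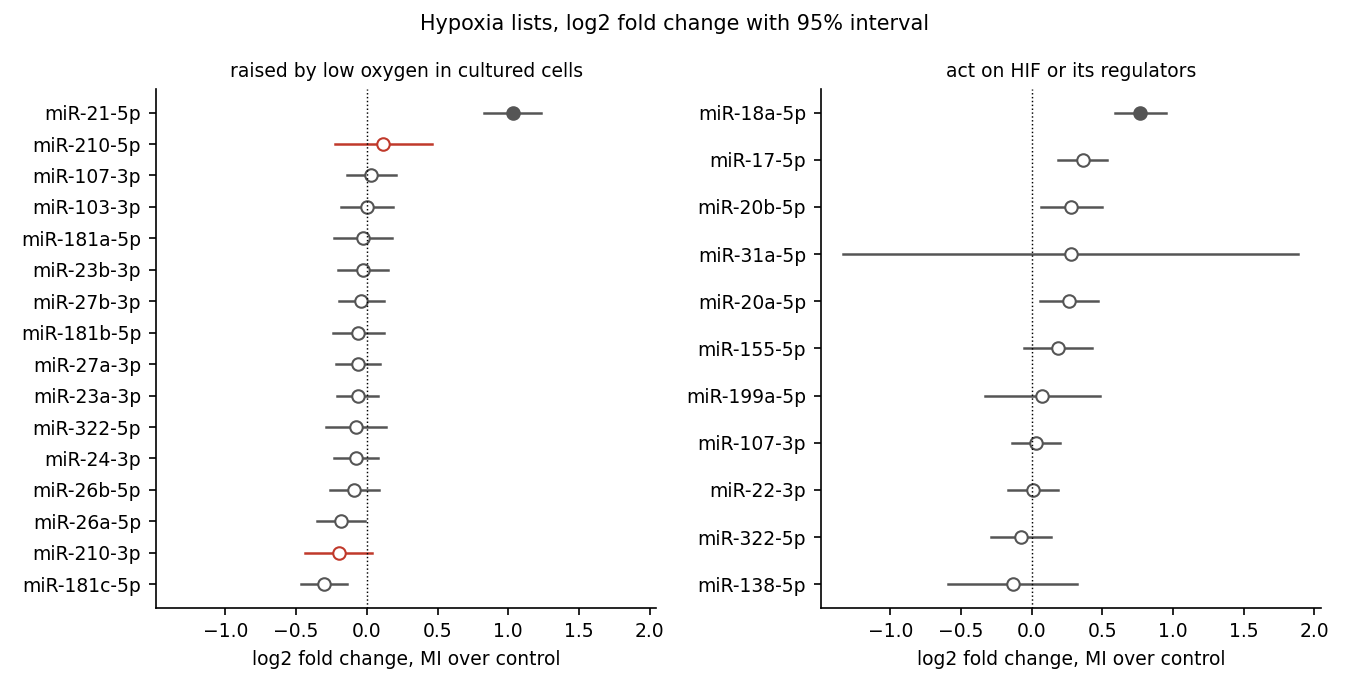
Log2 fold change of MI over control with its 95% interval in limma, for 16 miRNAs reported as raised by low oxygen (left) and 11 tested miRNAs reported to act on HIF or its regulators (right), filled where the adjusted p was under 0.05 and both strands of miR-210 in red. Only miR-21-5p on the left and miR-18a-5p on the right are filled, and the interval of miR-210-3p runs from -0.44 to 0.04.

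MiR-210-3p was also set against markers of the cell types that left ventricle can hold, by its log2 ratio within each array to the mean of a marker list. The smallest two-sided exact permutation p is again 0.1. Against the 6 cardiomyocyte miRNAs the ratio differed by -0.17 between MI and controls (exact permutation p = 0.3), with overlap, and against the endothelial strands miR-126a-3p and miR-126a-5p by -0.05 (exact permutation p = 0.7). Against 5 fibroblast and smooth muscle miRNAs it differed by -0.20 (exact permutation p = 0.4). None of these ratios separated the groups.

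Against the 6 leukocyte miRNAs the log2 ratio of miR-210-3p was -1.84, -1.90 and -2.11 in MI replicates, against -1.56, -1.46 and -1.46 in controls, a difference of -0.45 with no overlap (exact permutation p = 0.1). The size rests in part on miR-223-3p, the member with the largest change. Over the other 5 members the ratio was -1.65, -1.52 and -1.79 in MI replicates, against -1.51, -1.41 and -1.40 in controls. The difference was then -0.22, close to the log2 fold change of miR-210-3p itself, -0.20. The groups did not overlap with the list of 5, but MI replicate 2 and control replicate 1 lay close together. That shorter list was chosen after its values were seen and was not tested. Against the 3 erythroid miRNAs the ratio was -3.16, -2.94 and -3.46 in MI replicates, against -2.81, -2.56 and -2.88 in controls. The difference was -0.44 with no overlap (exact permutation p = 0.1), though MI replicate 2 and control replicate 3 lay close together. Against all tested miRNAs the difference was -0.24, with overlap (exact permutation p = 0.2). Each of these ratios also carries the log2 fold change of miR-210-3p itself. Single miRNAs had groups without overlap in 20.7% of the tested set, and that share was not computed for ratios to lists.

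The marker lists themselves moved as follows. All members of the lists were detected on all 6 arrays, and 0 of the members in any of them passed the adjusted limma threshold. At an unadjusted p under 0.05 there were 1 lower cardiomyocyte and 1 higher leukocyte member, each of 6, where 5.12% of all tested miRNAs were lower and 8.46% higher. The summed signal of the leukocyte list ran from 16950.3 to 22991 on MI arrays and from 15673 to 17857 on control arrays. The member with the largest change was miR-223-3p of myeloid cells, which stood at 1.45 ± 0.29 on the log2 scale (limma adjusted p = 0.0619). MiR-150-5p of lymphocytes stood at -0.21 ± 0.09. The erythroid sum ran from 24238 to 33538 on MI arrays and from 19357 to 27092 on control arrays. In that list miR-451-5p stood at 0.36 ± 0.18 and miR-144-3p at 0.35 ± 0.21, while miR-486 was level at 0.0007 ± 0.10. The endothelial sum was between 74116 and 74562 on MI arrays and between 76179 and 87862 on control arrays, with miR-126a-3p at -0.14 ± 0.08. The cardiomyocyte sum was between 384746 and 407540 on MI arrays and between 365101 and 429545 on control arrays, with a median log2 fold change of -0.04 over its 6 members. They ran from miR-208a-3p at -0.21 ± 0.08 (limma adjusted p = 0.335) to its relative miR-208b-3p at 0.22 ± 0.24 (limma adjusted p = 0.715), and miR-1-3p stood at -0.02 ± 0.08. The fibroblast and smooth muscle sum was between 63995 and 66613 on MI arrays and between 64933 and 76919 on control arrays. The part of these cell types in the level of miR-210-3p was not tested.

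The miRNAs whose log2 signal followed miR-210-3p most closely over the 6 arrays were sought by Pearson correlation. The points share arrays and scaling, and no p is given. The first was miR-3588, with r = 0.997, followed by miR-500-3p (0.968), miR-30c-1-3p (0.966), miR-363-3p (0.955) and miR-342-3p (0.953). Of the 448 other tested miRNAs, 17 had an r over 0.9. MiR-3588 had log2 signals of 9.61, 10.39 and 9.57 in MI replicates, against 10.00, 10.79 and 10.84 in controls, so MI replicate 2 was above control replicate 1 here too. It differed by -0.69 ± 0.31 between MI and controls (SE; limma adjusted p = 0.390). MiR-30c-1-3p stood at -0.56 ± 0.15 (limma adjusted p = 0.195), miR-500-3p at -0.50 ± 0.31, miR-363-3p at -0.35 ± 0.19 and miR-342-3p, a lymphocyte marker, at -0.17 ± 0.07, and 0 of the 5 passed the threshold.

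Their mature sequences, from RefSeq on GRCr8 with the seed in capitals, are shown because none shares the seed of miR-210-3p and the genes lie on other chromosomes: miR-3588 on 11, miR-500-3p and miR-363-3p on X, miR-30c-1-3p on 5 and miR-342-3p on 6.
miR-3588: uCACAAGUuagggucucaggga
miR-500-3p: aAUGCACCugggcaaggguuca
miR-30c-1-3p: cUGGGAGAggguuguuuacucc
miR-363-3p: aAUUGCACgguauccaucugu
miR-342-3p: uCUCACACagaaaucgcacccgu

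**Figure D4:**
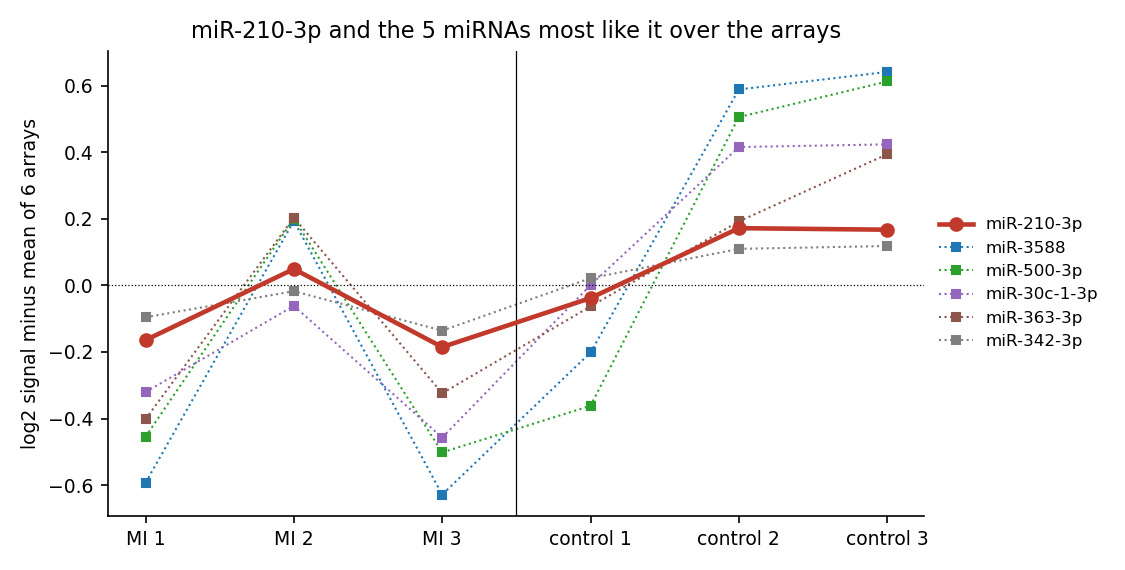
Log2 signal minus its mean over the 6 arrays (vertical axis) for miR-210-3p and the 5 miRNAs with the highest Pearson correlation with it, MI arrays left of controls. Lines join the points of 1 miRNA for the eye, since replicates have no order. All 6 miRNAs are higher in MI replicate 2 than in MI replicates 1 and 3, and all but miR-363-3p are highest in control replicates 2 and 3.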

How the data were processed

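The software was Agilent Feature Extraction, version 11.0.1.1, as the submitters' processing notes say, and the label was Cy3. The deposited spot values are background-subtracted intensity values on a linear scale, with spot flags, per the file headers. The authors' table holds log2 values; all columns have a median of 3.95, and how they were made is not given in the sources used here.

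Spots flagged as outliers (8.32% to 9.63% of an array) were dropped before averaging over each probe. Each array was scaled to its 75th percentile over the 885 probes detected on all 6 arrays. Probes of a miRNA were summed, floored at 5.14 and taken to log2. No spot was saturated (0). With 3 arrays in each group, precision is limited by their number.

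The comparison used limma (version 3.58.1, R 4.3.3) with lmFit and eBayes, the group as the only term, 4 residual and 2.52 prior degrees of freedom, and Benjamini-Hochberg adjustment over the 449 miRNAs or 926 probes tested and a threshold of 0.05. The same steps were run on simulated data with planted changes larger than that of miR-210-3p. How often a change of its size would be found was not tested. The rule for named miRNAs takes both miR-210 strands; called list members and up to 4 others per hypoxia list and 2 per marker list by p; the 5 highest correlations with miR-210-3p; and miRNAs within 10 kb or with its seed. MiR-1-3p, miR-133a-3p, miR-499-5p, miR-103-3p, miR-107-3p, miR-322-5p and miR-486 were named as members of a list or of a count. The member and the lists were chosen with earlier results of these data known. Names are those of the array, and 409 of the tested miRNAs matched a RefSeq mature sequence. Alternatives covered scaling, background, probe and spot summaries, filters, floor, eBayes settings, blocks and left-out arrays.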

Additional observations from a re-analysis of the deposited data

How the results depend on the processing

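MiR-210-3p kept its direction and its side of the threshold in all 25 alternatives, as did its 2 probes in the alternatives run on them (log2 fold change from -0.29 to -0.15). Several of the 25 left its log2 fold change unchanged or repeated that of another, as given above. Without single arrays miR-210-3p ranged from -0.28 to -0.16, its probes from -0.28 to -0.15 and from -0.27 to -0.16. The scalings moved the median of all tested miRNAs by at most 0.09 on the log2 scale. Relative to that median miR-210-3p stood at -0.22 under each of the 5 scalings. Only quantile normalization could have changed this value, since the other scalings shift all log2 values of an array equally. Without single arrays its ratio ranged from -0.32 to -0.18 against all tested miRNAs, -0.28 to -0.06 against cardiomyocyte, -0.13 to 0.04 against endothelial, -0.51 to -0.38 against leukocyte (-0.22 with all arrays when miR-223-3p was left out of the list, chosen after the data had been seen), -0.56 to -0.30 against erythroid and -0.35 to -0.08 against fibroblast and smooth muscle miRNAs.

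MiR-210-5p reversed when blocked on the array code or under code 1 alone (-0.16 in both), and ranged from -0.0064 (without MI replicate 3) to 0.25 without single arrays. The count of miRNAs past the threshold, 11, was 7 with no scaling, 6 with a floor 4 times as high, 5 with all 758 miRNAs tested, 5 when blocked on the scan and 3 on the array code, 4 under code 1 alone, and 4 to 11 without single arrays. The cause was not tested. The hypoxia list had 2 calls (1 lower, miR-181c-5p) with the 75th percentile over all probes or median scaling. The HIF regulator list had 0 under code 1 alone. Its called member, miR-18a-5p, also missed the threshold in fits that keep all 6 arrays. The limma adjusted p of miR-18a-5p was 0.0626 with the array code as a block and 0.0508 with the replicate block. It stayed past the threshold in 22 alternatives. The list was not counted under either block. Both lists had 1 call without any single array.

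Replicate numbers are shared between the groups, but nothing in the labels says that they pair the samples, so the main fit used no block. The deviations of same-numbered samples correlated at 0.12, -0.04 and 0.11, which with so few arrays cannot settle whether they are paired. With the replicate block, miR-210-3p stood at -0.20 (limma adjusted p = 0.396), miR-18a-5p had a limma adjusted p of 0.0508, and 3 miRNAs passed the threshold.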

Other observations

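MiR-147 is the 1 other rat miRNA in the RefSeq table that shares bases 2 to 7 with miR-210-3p, a shorter match than the full seed, and it was looked up after this match was seen. It has 4 probes on the array and was well above background on 2 of 3 MI arrays and 1 of 3 control arrays, so it was not tested.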
